A study of Mus musculus with 12 samples.

Results

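The genes described here are 8 parts of the machinery that releases synaptic vesicles: Stx1a, Snap25, Vamp2, Syt1, Syt7, Rims1, Rims4 and Unc13a. They were chosen by symbol, through the Ensembl identifiers of the deposited tables, from 38924 genes in the tables. The choice was made with earlier results of these data known. All 8 were among the 16493 genes that passed a filter on low counts. The values come from sequencing of polyadenylated RNA from whole brains of 12 mice aged 6 weeks, 3 for each of 4 genotypes. Both copies of Rorb carried h1, h2 or h4 in the mutants (Rorbh1/h1, Rorbh2/h2 and Rorbh4/h4 in the labels), and the others were wild type (WT). Rorb encodes an orphan nuclear receptor, and h1, h2 and h4 belong to the high stepper series of gait mutants. The labelled backgrounds were C57BL/6J for h1, B6(Cg)-Tyrc-2J/J for h2, B6.129S7-Il1r1tm1Imx/J for h4 and C57BL/6J for WT. The h2 and h4 alleles and their backgrounds, which include an allele of the tyrosinase gene and a targeted allele of Il1r1, therefore cannot be told apart. The labels name neither litters nor sexes.

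At a nerve terminal, a vesicle fuses with the plasma membrane when its SNARE protein VAMP2 zippers with the membrane SNAREs syntaxin 1A and SNAP25. Munc13-1, the product of Unc13a, primes vesicles by helping syntaxin to open, and RIM1, the product of Rims1, holds priming factors and calcium channels together at the active zone, the release site of the membrane. Synaptotagmin 1 is the calcium sensor for fast release, and synaptotagmin 7 is a sensor of higher calcium affinity linked to slow release and short-term facilitation. Rims4 encodes RIM4 gamma, a short member of the RIM family that keeps only the C-terminal C2 domain. Nearly all neurons use these proteins, so their transcripts are abundant in brain RNA. In whole tissue, fewer neurons and less RNA per neuron cannot be told apart.

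In these brains the SNAREs Snap25 and Vamp2 and the scaffold Rims1 did not pass the test in any of 7 comparisons, while the 5 other genes were called lower in at least 1 comparison. Rims4 fell in all 3 mutants against WT, with fitted changes of -12.9% in h1, -13.8% in h2 and -16.1% in h4. Stx1a (-16.1%), Syt7 (-9.03%) and Unc13a (-18.4%) also fell in h4 brains against WT. Syt1 fell in h4 brains against h1 and against h2 brains. No gene of the 8 was called higher in any comparison by edgeR, DESeq2 or limma voom, and at an unadjusted p under 0.05 only Snap25 was higher, in h1 and in the mean of the mutants.

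Libraries held 20310860 to 24000838 expected counts in h1, 14513825 to 24694178 in h2, 17667258 to 18388706 in h4 and 20168835 to 21472438 in WT. Rorb itself had 22.6 to 33.1 CPM (expected counts scaled to library size) in h1, 22.6 to 31.1 in h2, 8.65 to 9.11 in h4 and 16.3 to 18.4 in WT. Neurons were present by their markers: the 12 neuron markers summed to 4713 to 4770 CPM in h1, 4719 to 4779 in h2, 4756 to 4779 in h4 and 4724 to 4807 in WT, and edgeR called 0 of 12 in each mutant against WT, with 0, 2 and 3 at an unadjusted p under 0.05 in h1, h2 and h4 and 0 by DESeq2 or limma voom. The X-inactivation transcript Xist was above 100 CPM, as in female tissue, in 1 h1, 1 h2, 2 h4 and 3 WT libraries, so sex was not balanced over genotypes. The 8 genes were deeply covered, with 1240 expected counts at the lowest, for Rims4 in h2 replicate 1, and 47152 at the highest, for Snap25 in h2 replicate 2.

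Promoters of 4 of the 8 genes (Rims1, Stx1a, Syt1 and Unc13a) were found in the RefSeq table for GRCm38.p6. Those of the 3 called lower in h4 against at least 1 other genotype are shown, since ROR receptors bind DNA at the motif AGGTCA. Each is the 250 bases before an annotated start, read 5′ to 3′ on the strand of the gene. Capitals mark AGGTCA and the GC box GGGCGG, each searched on both strands, so that CCGCCC marks a GC box of the opposite strand.
Stx1a, chr5:135023232-135023481, plus strand: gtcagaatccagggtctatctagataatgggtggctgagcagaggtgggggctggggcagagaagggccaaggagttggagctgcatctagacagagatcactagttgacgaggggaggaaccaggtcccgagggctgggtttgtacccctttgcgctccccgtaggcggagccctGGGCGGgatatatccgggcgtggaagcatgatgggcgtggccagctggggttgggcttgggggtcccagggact
Unc13a, chr8:71671758-71672007, minus strand: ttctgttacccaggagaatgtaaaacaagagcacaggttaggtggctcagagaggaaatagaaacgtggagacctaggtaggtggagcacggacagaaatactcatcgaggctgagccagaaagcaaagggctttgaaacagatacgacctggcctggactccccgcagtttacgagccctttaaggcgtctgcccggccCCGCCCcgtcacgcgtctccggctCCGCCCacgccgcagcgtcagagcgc
Syt1, chr10:109009112-109009361, minus strand: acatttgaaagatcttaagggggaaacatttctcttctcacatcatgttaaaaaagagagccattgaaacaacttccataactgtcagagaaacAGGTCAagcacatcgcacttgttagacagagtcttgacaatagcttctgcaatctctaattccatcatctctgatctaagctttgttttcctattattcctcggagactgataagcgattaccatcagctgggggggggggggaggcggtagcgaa
The Stx1a window held 1 GC box and the Unc13a window 2, and neither held AGGTCA. The Syt1 window shown held 1 AGGTCA and no GC box, while the window of a second Syt1 start held 1 GC box and no AGGTCA. Of all 32851 windows of this length, 4607 held AGGTCA and 10756, or 32.7%, held a GC box. GC content was 62.0% in the Stx1a window, 58.0% in the Unc13a window and 42.8% in this Syt1 window, against a median of 52.4% over all windows. These letters describe the windows and do not show binding.

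The SNARE genes divided into Stx1a, which was low in h4, and the others, which were not called. Stx1a (ENSMUSG00000007207, chromosome 5 from 135023482 to 135051100 in GRCm38) encodes the plasma membrane SNARE. Its level was 124, 119 and 119 CPM in h1, 138, 129 and 122 in h2, 101, 115 and 104 in h4, and 128, 126 and 127 in WT. All 3 h4 brains lay below every other brain. The h1 brains also lay below the WT brains, with a log2 fold change of -0.06 (SE 0.05), but this did not pass the test (adjusted p = 0.733, edgeR quasi-likelihood test with Benjamini-Hochberg adjustment over all genes tested, as for every adjusted p here). In h4 against WT Stx1a changed by -0.25 in log2 units (SE 0.05, adjusted p = 0.00168). Against h1 it was -0.19 (adjusted p = 0.0151), and against h2 it was -0.28 (SE 0.05, adjusted p = 6.37e-04). The call against WT held without each of the 12 libraries in turn, whereas the call against h1 was lost without h1 replicate 1, h4 replicate 1 or h4 replicate 3 (adjusted p of 0.0584, 0.0969 and 0.0785).

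Snap25 (ENSMUSG00000027273, chromosome 2 from 136713453 to 136782428) encodes the membrane SNARE that gives the bundle a pair of its helices. It had 1920, 1944 and 1899 CPM in h1, 1965, 1909 and 1866 in h2, 1980, 1914 and 1926 in h4, and 1879, 1804 and 1871 in WT. Every h1 and h4 brain was above every WT brain, while 1 h2 brain lay within the WT range. The differences were small: the log2 fold change was 0.06 in h1 (95% interval 0.00 to 0.12, adjusted p = 0.471), 0.05 in h2 (-0.01 to 0.11, adjusted p = 0.576) and 0.06 in h4 (-0.00 to 0.12, adjusted p = 0.294). Vamp2 (ENSMUSG00000020894, chromosome 11 from 69088490 to 69092384) encodes the vesicle SNARE. It had 676, 662 and 662 CPM in h1, 693, 678 and 678 in h2, 694, 693 and 681 in h4, and 685, 707 and 702 in WT. The h1 brains were the lowest and did not overlap WT, and the h2 and h4 brains overlapped WT. The log2 fold change of Vamp2 was -0.06 in h1 (95% interval -0.12 to 0.01, adjusted p = 0.587), -0.03 in h2 (-0.10 to 0.03, adjusted p = 0.768) and -0.03 in h4 (-0.09 to 0.04, adjusted p = 0.723). For both SNAREs the intervals against WT reach at most 0.12 from zero on the log2 scale.

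**Figure D1:**
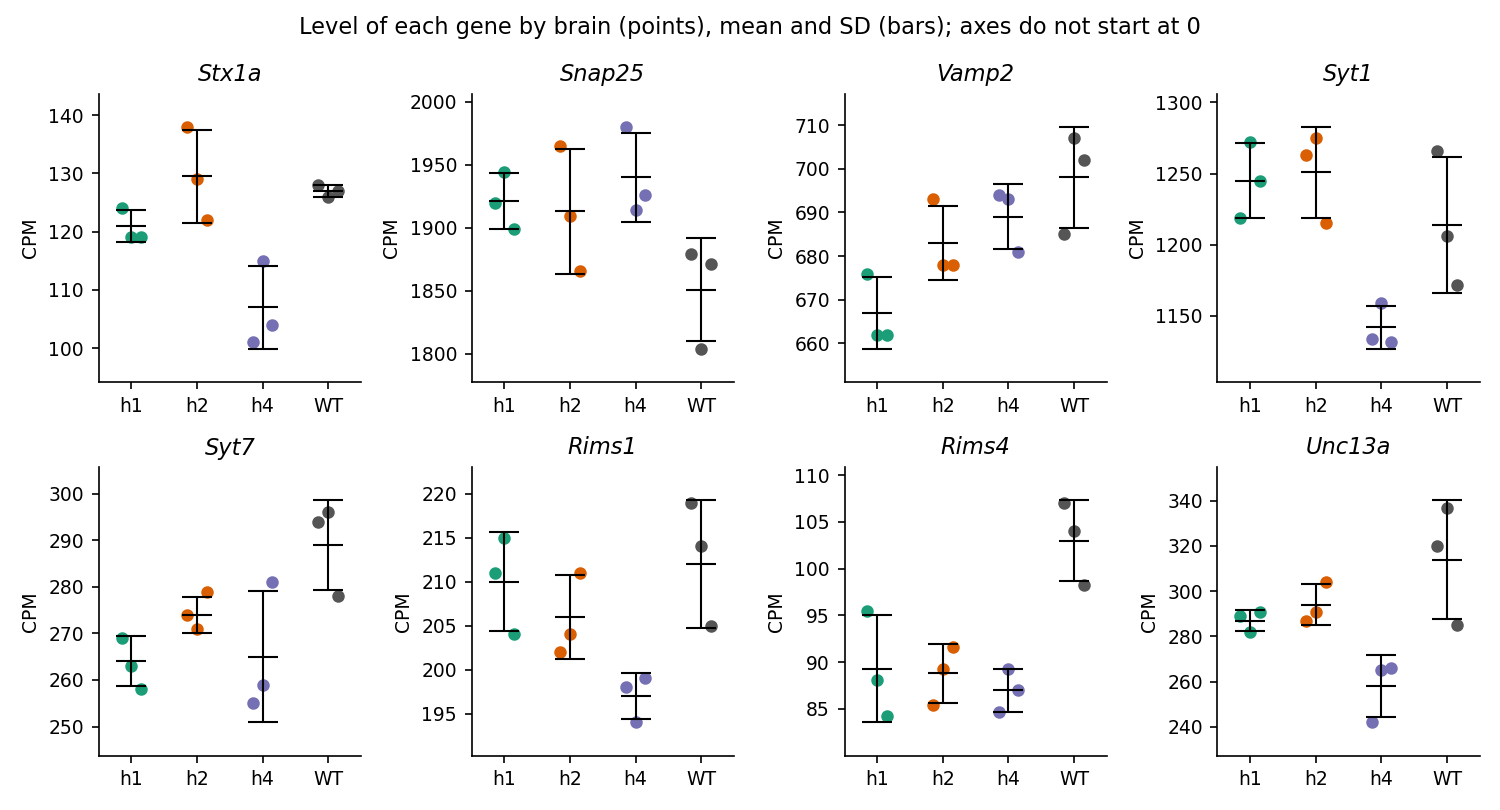
Level of each of the 8 genes in CPM (vertical axes, which do not start at 0) in each brain of h1, h2, h4 and WT mice, with the mean and SD of 3 brains as bars. The h4 points lie below all others for Stx1a, Syt1, Rims1 and Unc13a, and the WT points lie above all others for Rims4.

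Of the calcium sensors, Syt7 was called against WT in h4 and Syt1 was not called against WT in any mutant. Syt1 (ENSMUSG00000035864, chromosome 10 from 108497650 to 109010982, minus strand), the fast sensor, had 1219, 1272 and 1245 CPM in h1, 1263, 1275 and 1215 in h2, 1134, 1159 and 1132 in h4, and 1266, 1206 and 1172 in WT. The 3 h4 brains were again the lowest of the 12. The log2 fold change of Syt1 in h4 was -0.14 against h1 (SE 0.03, adjusted p = 0.0124) and -0.14 against h2 (SE 0.03, adjusted p = 0.0189). Against WT it was -0.10 (95% interval -0.17 to -0.03) and did not pass (adjusted p = 0.101). Without WT replicate 3, the lowest WT brain, it did pass (adjusted p = 0.0195), as it did with offsets for GC content and length (adjusted p = 0.0319). The calls in h4 against h1 and h2 were lost without single libraries of those groups, with adjusted p up to 0.0716 and 0.0961. In h1 and h2 the Syt1 differences from WT were 0.05 (95% interval -0.02 to 0.12) and 0.04 (-0.03 to 0.11).

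Syt7 (ENSMUSG00000024743, chromosome 19 from 10389090 to 10453180), the slow sensor, lies 8.48 Mb from Rorb. It had 269, 263 and 258 CPM in h1, 274, 271 and 279 in h2, 255, 259 and 281 in h4, and 294, 296 and 278 in WT. A pair of the h4 brains were low and the third overlapped WT, while all 3 h1 brains were below WT. The call was made in h4, at -0.14 on the log2 scale (SE 0.04, adjusted p = 0.0404), and not in h1, where it was -0.12 (SE 0.04, adjusted p = 0.186), or in h2, where it was -0.08 (SE 0.04, adjusted p = 0.456). The difference between h4 and h1 was -0.01 (95% interval -0.09 to 0.07, adjusted p = 0.901), so the 2 mutants were not shown to differ. The h4 call was lost with library totals alone (0.0601), with a term for Xist (0.0561), with offsets for GC content and length (0.0949), or without WT replicate 1, WT replicate 2, h4 replicate 1 or h4 replicate 2 (adjusted p of 0.183, 0.176, 0.196 and 0.102).

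Among the active zone genes, Rims4 was low in every mutant. Rims4 (ENSMUSG00000035226, chromosome 2 from 163859751 to 163918683, minus strand) had 95.5, 88.1 and 84.2 CPM in h1, 85.4, 89.3 and 91.6 in h2, 84.7, 89.3 and 87.0 in h4, and 107, 104 and 98.3 in WT. All 9 mutant brains lay below all 3 WT brains, a separation found in either direction for 1.83% of genes tested. The means were 89.3 ± 5.73 CPM in h1, 88.8 ± 3.11 in h2, 87.0 ± 2.29 in h4 and 103 ± 4.30 in WT (SD, n = 3 each). On the log2 scale Rims4 changed by -0.20 in h1 (SE 0.04, adjusted p = 0.0291), -0.21 in h2 (SE 0.04, adjusted p = 0.0195), -0.25 in h4 (SE 0.05, adjusted p = 0.00118) and -0.22 for the mean of the mutants (SE 0.04, adjusted p = 0.00149). The comparisons share the 3 WT brains, so they are not independent of each other. The mutants were close to each other, with a log2 difference of -0.05 in h4 against h1 (95% interval -0.15 to 0.04), -0.04 in h4 against h2 (-0.13 to 0.05) and -0.02 in h2 against h1 (-0.11 to 0.08).

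The h4 call of Rims4 held without each of the 12 libraries and under the 7 other settings tried. The h1 and h2 calls were less firm. The h1 call was lost with limma voom (0.0706) or without WT replicate 1, WT replicate 2, h1 replicate 2 or h1 replicate 3 (adjusted p of 0.236, 0.0911, 0.182 and 0.207), and the h2 call with limma voom (0.0606) or without WT replicate 1, WT replicate 2, h2 replicate 1 or h2 replicate 2 (0.155, 0.0989, 0.112 and 0.0743). The call for the mean of the mutants was lost without WT replicate 1 (0.0657). With a term for Xist in the model, the log2 fold change of Rims4 was -0.18 in h1 (adjusted p = 0.277), -0.19 in h2 (0.117) and -0.24 in h4 (0.00404). All 3 WT libraries had high Xist, so no WT brain with low Xist could be set beside the mutants.

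Unc13a (ENSMUSG00000034799, chromosome 8 from 71624417 to 71671757, minus strand), the priming factor, had the largest fold change of the 8 genes in h4 against WT, though not with offsets for GC content and length, where it was -0.22 beside -0.26 for Stx1a and -0.23 for Rims4. It had 289, 282 and 291 CPM in h1, 287, 291 and 304 in h2, 242, 265 and 266 in h4, and 320.2, 337 and 285 in WT. The h4 brains lay below all others, and the h1 and h2 brains lay near the lowest WT brain. The log2 fold change of Unc13a in h4 was -0.29 against WT (SE 0.05, adjusted p = 7.69e-04), -0.18 against h1 (SE 0.05, adjusted p = 0.0387) and -0.20 against h2 (SE 0.05, adjusted p = 0.0243). In h1 it was -0.12 (SE 0.05, adjusted p = 0.380) and in h2 -0.10 (SE 0.05, adjusted p = 0.456). Without WT replicate 3 both of these passed (adjusted p of 0.0304 and 0.0425). For the mean of the mutants it was -0.17 (SE 0.04, adjusted p = 0.0329), a call lost without 7 single libraries (adjusted p up to 0.357, without WT replicate 2), with limma voom (0.0643), with a term for Xist (0.107) and with the GC and length offsets (-0.11, 0.103). The h4 call against WT held without each of the 12 libraries, whereas those against h1 and h2 were lost without several, with adjusted p up to 0.196 and 0.140. The call against h1 was also lost with library totals alone (0.0715), limma voom (0.0582) and the Xist term (0.0856), and the call against h2 with the Xist term (0.0560). The 3′ end of Unc13a overlaps Colgalt1 on the other strand, which averaged 42.8 CPM, and reads from the overlap cannot be told apart in libraries that do not mark strand.

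Rims1 (ENSMUSG00000041670, chromosome 1 from 22286251 to 22805994, minus strand) encodes the full-length active zone scaffold and lies 17.4 Mb from Il1r1. It had 211, 215 and 204 CPM in h1, 202, 204 and 211 in h2, 198, 194 and 199 in h4, and 219, 214 and 205 in WT. The h4 brains were below all others. The log2 fold change in h4 was -0.12 against WT (95% interval -0.19 to -0.04) and -0.11 against h1 (-0.18 to -0.04), and neither passed (adjusted p of 0.0557 and 0.0700). The h4 difference from WT lay so near the threshold that DESeq2 (0.0300), the table without the low-count filter (0.0461), or leaving out WT replicate 3 (0.0155) or h2 replicate 1 (0.0483) brought it under. The difference from h1 passed with only the groups compared in the fit (0.0464) and with the GC and length offsets (0.0238). In h1 and h2, Rims1 differed from WT by -0.01 (95% interval -0.08 to 0.07) and -0.05 (-0.12 to 0.03).

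**Figure D2:**
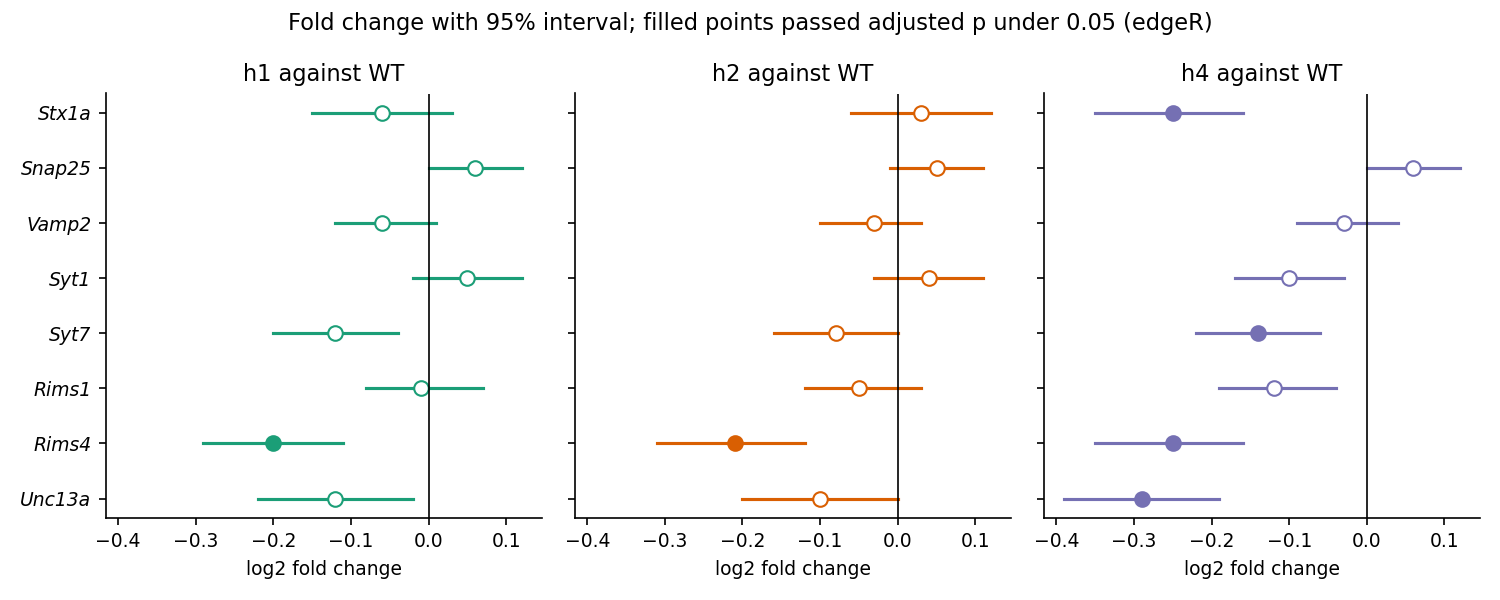
Log2 fold change (horizontal axis) of the 8 genes in h1, h2 and h4, each against WT, with 95% intervals from edgeR. Filled points passed an adjusted p under 0.05: Rims4 in all 3 panels, and Stx1a, Syt7 and Unc13a in the h4 panel.

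The 8 genes were chosen with earlier results of these data known, so their counts beside all genes are a description and not a test. Read against all genes, 1 of the 8 was called lower in h1, where 0.206% of genes tested were called lower (0.625% in either direction). In h2 it was 1 of 8, against 0.340% called lower (0.679% in either direction). In h4 it was 4 of 8, against 2.91% called lower (4.55% in either direction), or 7.51% of those averaging 50 CPM or more, as the 8 do. In h4 against h1 and in h4 against h2, 3 of 8 were called lower, beside 2.53% and 1.68% of genes tested (4.64% and 3.22% in either direction). For the mean of the mutants 2 of 8 were called lower, beside 0.612% (1.10% in either direction). In h2 against h1, edgeR called 0 of 8, beside 0.722% of genes, with 0 at an unadjusted p under 0.05 and 0 by DESeq2 or limma voom. The median log2 fold change of the 8 was -0.06 in h1, -0.04 in h2 and -0.13 in h4, against 0.00, 0.00 and 0.01 over all genes tested.

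Groups that did not overlap were found for 5 of 8 genes in h1 against WT, 1 in h2 and 6 in h4, beside 14.9%, 15.2% and 21.3% of all genes tested. One test of any difference among the 4 genotypes called Stx1a (adjusted p = 0.00127), Rims4 (0.00203), Unc13a (0.00342) and Syt1 (0.0189), beside 6.67% of genes. It did not call Syt7 (0.0732), Rims1 (0.0980), Snap25 (0.407) or Vamp2 (0.639).

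Levels of different genes are compared here in the deposited TPM, which correct for transcript length. In h1 the order of the mean levels was Snap25 with 1973 TPM, Vamp2 with 637, Syt1 with 589.8, Stx1a with 125, Rims1 with 110.1, Unc13a with 81.2, Syt7 with 77.0 and Rims4 with 35.1, and no neighbours overlapped. Snap25, Vamp2 and Syt1 thus stood well above the 5 other genes in TPM. In h2 the order was the same, and the ranges of Unc13a (79.0 to 94.7 TPM) and Syt7 (77.9 to 82.8) overlapped. In h4, Stx1a with 106 TPM overlapped Rims1 with 101, and Syt7 with 76.7 stood above Unc13a with 72.1, with overlapping ranges. In WT the order was that of h1, with Snap25 at 1930 TPM, Vamp2 at 678, Syt1 at 574, Stx1a at 129, Rims1 at 113, Unc13a at 94.4, Syt7 at 85.8 and Rims4 at 41.1. The WT ranges of Rims1 and Unc13a overlapped, as did those of Unc13a and Syt7.

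**Figure D3:**
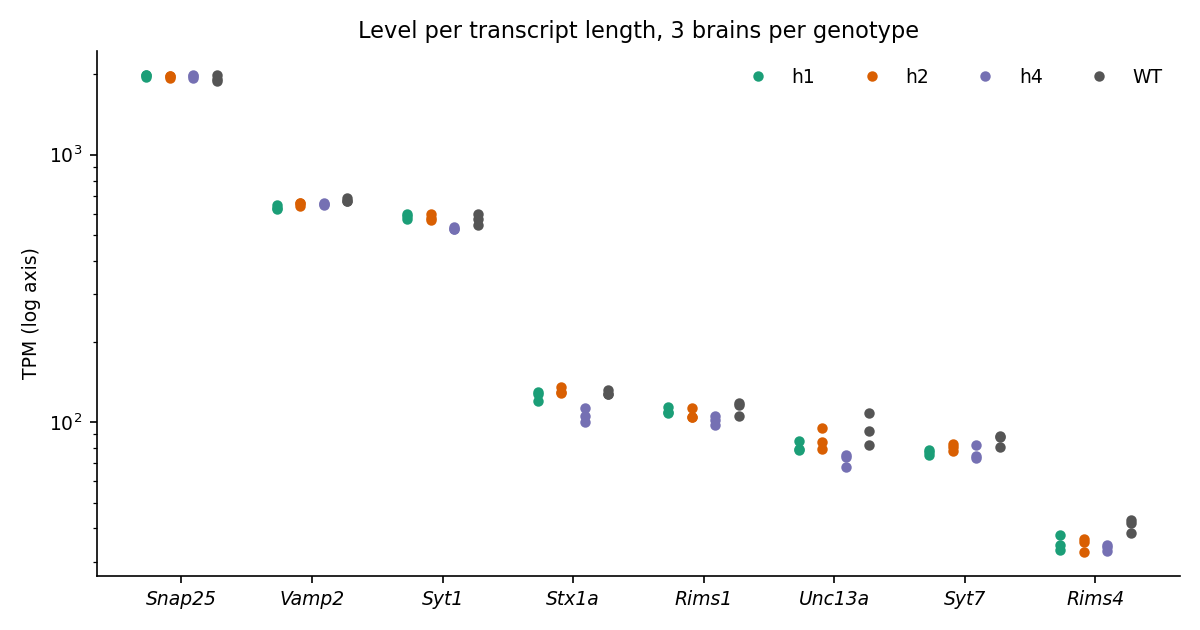
TPM (vertical log axis) of each gene in each brain, ordered from left to right by the WT mean, with 3 points each for h1, h2, h4 and WT. Snap25 lies near 1930 to 1973 TPM on average and Rims4 at 33.8 to 41.1, and the points of Rims1, Unc13a and Syt7 lie close together.

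Shares of a gene within its family, by TPM, were computed for 7 of the 8 genes and ask whether a relative took its place. Rims4 made up 14.1% ± 0.667 of RIM family TPM in h1, 14.1% ± 0.293 in h2, 14.3% ± 0.608 in h4 and 15.7% ± 0.0847 in WT (SD, n = 3 each). All mutant shares of Rims4 lay below all WT shares, and each comparison reached the smallest p an exact permutation test allows with 3 against 3 brains (2-sided exact p = 0.1, adjusted p = 0.210 over 21 share tests). This was not particular to Rims4. The same p was reached by Vamp2 and Syt7 in h1 and h2, by Snap25 in h2 and h4, and by Syt1 in h1. Of its relatives by log2 fold change, Rims2 was at 0.04, -0.00 and -0.04 for h1, h2 and h4 against WT. Rims3 was at -0.06, -0.02 and -0.07 in the same comparisons, and neither gene was called. Unc13a held 57.6% ± 1.32 of UNC13 family TPM in h1, 57.8% ± 1.37 in h2, 56.0% ± 1.08 in h4 and 60.0% ± 3.21 in WT. Vamp2 held 69.5% of the summed TPM of Vamp1, Vamp2 and Vamp3 in h1, 69.8% in h2, 70.9% in h4 and 71.5% in WT. Snap25 held 83.4%, 83.6% and 83.8% of that of Snap25, Snap23, Snap29 and Snap47 in h1, h2 and h4, and 83.3% in WT. In the same order, Syt1 held 65.2%, 64.7%, 63.4% and 63.6% of the TPM of synaptotagmin calcium sensors (Syt1, Syt2, Syt3, Syt5, Syt6, Syt7, Syt9 and Syt10). Syt7 held 8.51%, 8.92%, 9.17% and 9.50% of it, and Rims1 44.3%, 43.3%, 42.8% and 43.2% of RIM family TPM. No share passed after adjustment, and this design could not have reached p under 0.05 for any of them.

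The mean transcript length that RSEM estimates for a gene shifts when its mix of transcripts does. Rims4 has 1 transcript in the tables, of 4962 bases, so it gives no such measure. For the other 7 genes no difference from WT passed (smallest adjusted p = 0.700 over 21 exact permutation tests), and with 3 against 3 brains none could have, since the smallest exact p is 0.1. That p was reached by Stx1a and Syt1 in h1 and by Snap25 in h4. Stx1a averaged 2015 ± 41.1 bases in h1 and 2075 ± 17.6 in WT. Unc13a varied most, with 6586 to 7025 bases in h1, 6316 to 6818 in h2, 6730 to 6924 in h4 and 6147 to 6836 in WT.

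Other genes of the presynaptic terminal were counted by list. Of 119 listed genes, 116 were tested. In h1 and h2 against WT, edgeR called 0 of the 116, with 14 and 7 at an unadjusted p under 0.05 and 0 by DESeq2 or limma voom. Without WT replicate 3, 2 fell in h1 and 2 in h2. In h1, 1 fell with only the groups compared in the fit or without h4 replicate 2. Without the low-count filter 1 rose and 1 fell in h1. In h4 against WT 16 fell and 0 rose, with DESeq2 calling 24 lower and 2 higher and limma voom 12 lower. With offsets for GC content and length, 16 fell and 2 rose. The share that fell in h4 was 13.8%, beside 2.91% of all genes tested and 7.51% of genes with at least 50 CPM. The lists were also chosen with earlier results of these data known, so these shares are a description. The median log2 fold change of the 116 was 0.01 in h1, -0.00 in h2 and -0.06 in h4. In h4 against h1, 10 fell (Prrt2, Cadps2, Rab3b, Rab3c, Erc1, Slc17a6, Atp6v1b2, Eps15, Synj2 and Synj1) and 1 rose (Syt4), beside 2.53% of all genes called lower. By DESeq2 21 fell there, and 23 with offsets for GC content and length, where 727 genes in all were called lower. With library totals alone 6 fell, and without h1 replicate 3 only 4 did. In h4 against h2, 8 fell (among them Prrt2, Cplx2, Rab3b, Rab3c, Cacna1a, Eps15 and Ap2a1) and 2 rose (Syt4 and Snap23), beside 1.68% of all genes called lower. By DESeq2 13 fell there, and 14 with those offsets, where 490 genes in all were called lower. Without h2 replicate 2 or without h4 replicate 1, only 3 fell. Rab3b had the largest of these falls, with log2 fold changes of -0.46 against h1 and -0.42 against h2. Cplx2, which encodes the SNARE clamp complexin 2, stood at -0.12 in h4 against h2 (adjusted p = 0.0335). For the mean of the mutants, Cacna1a fell (-0.20, adjusted p = 0.0176). This was 0.862% of the 116, beside 0.612% of all genes called lower. With a term for Xist, with the GC and length offsets, or without WT replicate 1 or WT replicate 2, 0 of the 116 fell for this mean. Without WT replicate 3 it was 8, by DESeq2 4 and without the low-count filter 3.

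The active zone list held 8 of these 16 falls, among 25 genes tested. The 6 with the smallest adjusted p were Cacna1a, the P/Q-type calcium channel that triggers release (157 CPM in h4 and 197 in WT, log2 fold change -0.34, SE 0.05, adjusted p = 4.32e-04), Rab3b (-0.44, 0.00202) and Rab3c (-0.18, 0.00921), vesicle GTPases that bind RIM, Cacna1b, the N-type calcium channel (-0.18, 0.0115), Erc1, the scaffold ELKS (-0.18, 0.0144), and Rimbp2, which links RIM to calcium channels (-0.20, 0.0317), each given with its log2 fold change and adjusted p. Bsn, the scaffold Bassoon (-0.43, 0.0376), and Unc13c, a paralogue of Unc13a (-0.13, 0.0408), completed the 8 and are named after their values were seen. Of 19 SNARE regulators, 4 fell: Cadps2, a priming factor of dense-core vesicles (-0.16, 0.00429), Doc2b, a calcium sensor (-0.18, 0.0275), Prrt2, which binds SNAREs (-0.12, 0.0331), and Snph, known for binding syntaxin and anchoring axonal mitochondria (-0.15, 0.0459). Of 26 endocytosis genes, 3 fell: Synj2, a phosphoinositide phosphatase (-0.27, 0.00725), Pacsin1 (-0.15, 0.0195) and Itsn1 (-0.14, 0.0499), membrane-bending and scaffold proteins. Of 10 other SNARE genes 1 fell, while of 14 other synaptotagmins and 22 vesicle proteins edgeR called 0, with 3 and 5 at an unadjusted p under 0.05. DESeq2 called 1 of these synaptotagmins higher and 2 of the vesicle proteins lower, and limma voom called 0.

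The number of the 116 that fell in h4 depended on single libraries. It was 3 without WT replicate 1, 4 without WT replicate 2, 22 without WT replicate 3, 7 without h4 replicate 1, 9 without h4 replicate 2 and 7 without h4 replicate 3, and in the active zone list it ranged from 2 to 8 over these. With a term for Xist it was 10. With offsets for GC content and length, 6 genes of the active zone list fell in h4 and 1 rose. In that list 1 gene also rose without WT replicate 3 or without h4 replicate 2.

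**Figure D4:**
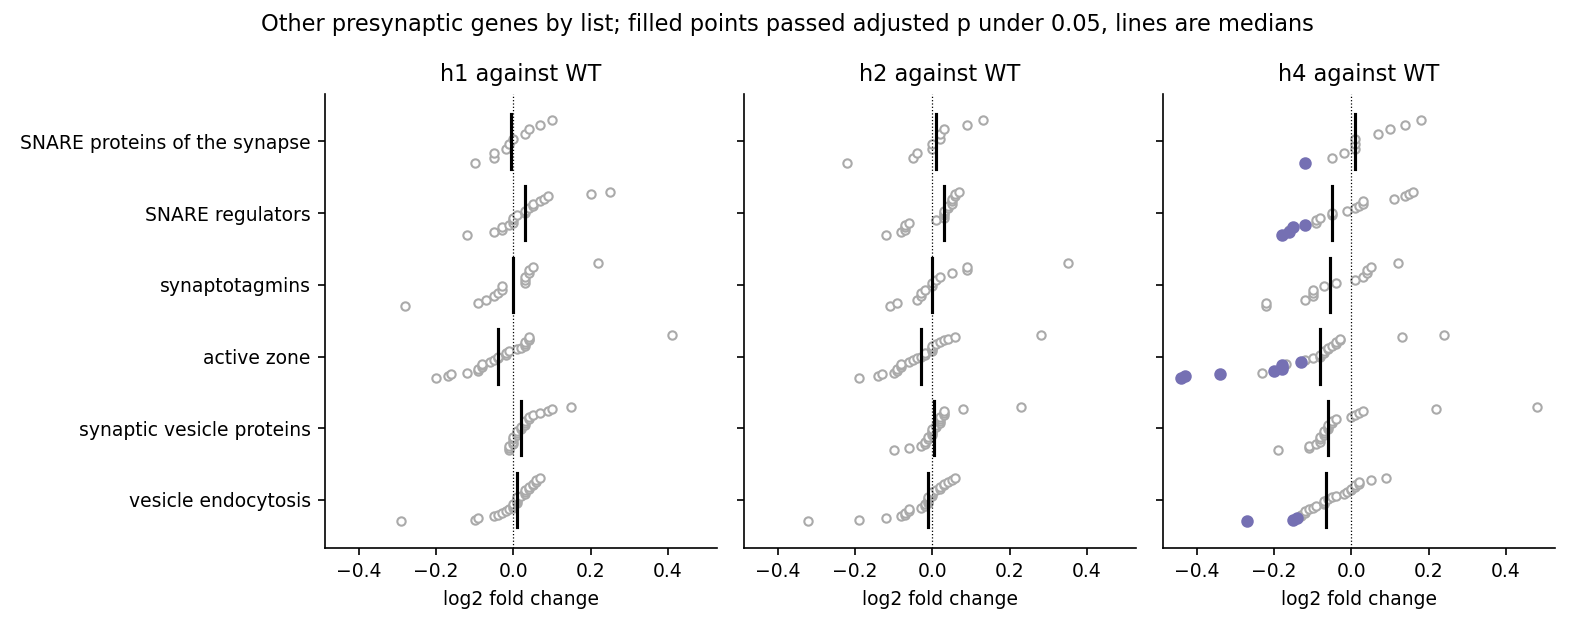
Log2 fold change (horizontal axis) of 116 other presynaptic genes in 6 lists, in h1, h2 and h4 against WT. Filled points passed an adjusted p under 0.05 and black lines mark the medians. Filled points appear only in the h4 panel, all left of zero, with 8 in the active zone list.

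Markers of other cells moved beside these results, and their part in them was not tested. Of 12 oligodendrocyte markers, 7 rose in h1 (led by Mobp, Mbp, Cldn11, Mal, Mog and Mag), 3 in h2 (Opalin, Gjb1 and Mbp) and 1 in h4 (Opalin) against WT, and their summed level was 14319 to 14712 CPM in h1, 12446 to 13478 in h2, 12502 to 13451 in h4 and 11096 to 12665 in WT. Of 10 astrocyte markers, 5 rose in h4 (S100b, Aldh1l1, Gfap, Slc1a3 and Gja1), while 2 lay below zero there and DESeq2 called 1 lower. In h1 and h2 edgeR called 0, with 4 and 6 at an unadjusted p under 0.05 and 1 called higher by DESeq2 in h1. Their summed level was 4741 to 5073 CPM in h1, 4649 to 4957 in h2, 4701 to 4848 in h4 and 4655 to 4777 in WT. Among 10 GABAergic neuron markers edgeR, DESeq2 and limma voom called 0 in each mutant against WT, with 1, 1 and 2 at an unadjusted p under 0.05 in h1, h2 and h4. Of 12 cerebellar markers, 11 lay below zero in h1 (median log2 fold change -0.11), 9 in h2 (-0.06) and 5 in h4 (0.05). Itpr1, the calcium release channel abundant in Purkinje cells, fell in h4, the 1 cerebellar call by edgeR in a mutant against WT, where DESeq2 called 1 lower and 2 higher and limma voom 1 lower and 1 higher. Their summed level was 2311 to 2383 CPM in h1, 2389 to 2472 in h2, 2215 to 2696 in h4 and 2534 to 2621 in WT. Of 10 endothelial and mural markers, all lay below zero in h1 (median -0.16) and 2 fell there (Cldn5 and Cdh5), with 3 called lower by DESeq2. Their summed level was 340.0 to 373 CPM in h1, 398 to 400.0 in h2, 376 to 414 in h4 and 394 to 419 in WT. None of these markers was under 1 CPM.

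Fold changes differed slightly by the base composition and by the length of transcripts. The median log2 fold change in h4 against WT was 0.04 in the fifth of genes lowest in GC content and -0.01 in the highest. Stx1a stood at percentile 90.0 of GC content among genes tested, Rims4 at 83.4, Unc13a at 77.9 and Syt7 at 76.3, whereas Snap25 stood at 3.27 and Syt1 at 29.4. With offsets for GC content and length, Rims4 still fell, by 0.18 on the log2 scale in h1 (adjusted p = 0.0172), 0.20 in h2 (0.00846) and 0.23 in h4 (5.65e-04). In h4, Stx1a fell by 0.26 (6.24e-04) and Unc13a by 0.22 (7.54e-04) with these offsets. The h4 call of Syt7 was lost with them (log2 fold change -0.10, adjusted p = 0.0949), and Syt1 was called (-0.10, 0.0319).

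Genes whose pattern over the 12 libraries was most like that of Rims4, by Pearson correlation of log2 CPM among 10081 genes, were Ahdc1, Sptan1, Fbxo41, Dok6 and Cic, each at r = 0.93. The most like Snap25 were Psmd1 (r = 0.93), Btf3l4 and Commd8 (0.89 each), and Mrpl13 and Efcab2 (0.87 each). The points share libraries, genotypes and depth, and the values are a description only. Ahdc1, for instance, averaged 41.7 CPM in h1, 41.2 in h2, 41.6 in h4 and 47.7 in WT, and Psmd1 139 in h1, 137 in h2, 140.3 in h4 and 134 in WT.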

How the data were processed

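Gene-level RSEM output was deposited for each of 12 libraries. Bowtie2 2.2.0 and RSEM 1.2.12 are named in the submitters' processing notes. No build is given in the sources used here. As deposited, expected counts estimate read pairs per gene and need not be whole, and 77.7% of values above 0 were. The deposited TPM values are scaled to the library and to transcript length, as are the authors' FPKM values, which were not used. The authors' tables also give transcript lengths. Per the labels' protocols, libraries came from the TruSeq RNA v2 kit, which does not mark strand, and were read as 100 bp paired ends.

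Of 38924 identifiers, 37607 were found in GENCODE M21 (GRCm38), which gave symbols and positions. Expected counts were rounded and tested with edgeR 4.0.16 (quasi-likelihood, robust, TMM, its low-count filter) in R 4.3.3, with 1 model over all 12 libraries, 7 comparisons and Benjamini-Hochberg adjustment over 16493 genes. A gene was called at an adjusted p under 0.05. CPM values are expected counts scaled to each library's total, without TMM. The common biological coefficient of variation was 0.0531. Shares and lengths were tested with 2-sided exact permutation tests. Alternatives used DESeq2 1.42.0, limma 3.58.1 and the settings given below, and the GC and length offsets were added after seeing the data. The steps were tested on simulated counts. The replicates are mice, per the series design. The 8 genes and the gene lists were chosen with earlier results of these data known. Named besides the 8 are up to 6 called genes per list and comparison, smallest adjusted p first, and the 5 genes most like Rims4 and Snap25. A few genes that this rule takes, and the family share that needs one of them, are not reported here.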

Additional observations from a re-analysis of the deposited data

How the results depend on the processing

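Of the 8 genes, the number called against WT moved in h1 to 0 with limma voom and 0 with a term for Xist, in h2 to 0 and 0 with the same settings, and for the mean of the mutants to 1 with limma voom, 1 with the Xist term and 1 with the GC and length offsets. In h4 against WT it was 4, with 3 for library totals alone or the Xist term. It was 5 there with DESeq2 or without the low-count filter. Leaving out single libraries gave 0 to 2 in h1, 0 to 2 in h2, 0 to 3 in h4 against h1, 1 to 3 in h4 against h2 and 0 to 3 for the mean of the mutants. Directions turned only for differences that had not passed: with library totals alone Syt1 in h2 against h1 (0.01), Snap25 (0.01) and Syt7 (0.01) in h4 against h1; without the low-count filter Snap25 (-0.00) and Vamp2 (-0.01) in h4 against h2; with the offsets Rims1 in h1 (0.01), Syt1 in h2 against h1 (0.00) and Snap25 in h4 against h2 (-0.02), all log2 fold changes. The cause of these shifts was not tested. Leaving out libraries also turned log2 fold changes, with ranges in h1 of -0.04 to 0.02 for Rims1, in h2 of -0.02 to 0.08 for Stx1a, in h2 against h1 of -0.04 to 0.01 for Snap25, -0.02 to 0.02 for Syt1 and -0.06 to 0.03 for Rims4, in h4 against h1 of -0.02 to 0.00 for Snap25 and -0.05 to 0.01 for Syt7, in h4 against h2 of -0.01 to 0.03 for Snap25 and -0.00 to 0.02 for Vamp2, and for the mean of the mutants of -0.03 to 0.03 for Syt1. Share differences from WT ranged over -0.45 to 0.10 percentage points for Syt1 in h4 and -0.24 to 0.89 for Rims1 in h2. Length differences from WT in bases ranged over -28.68 to 7.73 for Stx1a in h2, -5.95 to 10.94 for Stx1a in h4, -0.16 to 2.47 for Snap25 in h1, -9.05 to 0.08 for Vamp2 in h4, -16.78 to 21.26 for Syt1 in h2, -34.88 to 33.13 for Rims1 in h1, -19.51 to 74.76 for Rims1 in h2 and -125.09 to 230.71 for Unc13a in h2. The replicate numbers of the h1 and h2 titles did not pair the brains (correlations of deviations between same-numbered brains of -0.147, -0.112 and 0.028), and with the replicate block 0 of the 8 genes were called in h2 against h1, as without it. With 3 brains per genotype, the called log2 fold changes of the 8 genes nearest to zero were at -0.14.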
